A study of Mus musculus with 6 samples.

Results

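The genes described here encode the enzymes and regulators of cholesterol synthesis and of fatty acid synthesis. They were taken by symbol from a list of 31 genes, each of which matched exactly 1 Ensembl identifier among the 55414 in the count table. The list holds 7 enzymes of the mevalonate steps or feeding them, 11 enzymes from squalene to cholesterol, 6 genes of sterol sensing and transport, and 7 enzymes of fatty acid synthesis. RNA was sequenced from C2C12 cells, a mouse myoblast line that can fuse into myotubes, with genotype WT in every sample. Cells received, with lipofectamine, a control siRNA (siRNA-NC, siControl 1 to 3) or an siRNA named for USF2 (siRNA-USF2, siUsf2 1 to 3). The labels give neither the siRNA sequences nor the time from transfection to harvest, and do not say whether replicates were separate cultures, so p-values reflect only how much these samples varied, and that variation may be technical.

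Cholesterol is built from acetyl-CoA through mevalonate, isoprenoid units, squalene and lanosterol, and fatty acids are built from acetyl-CoA by carboxylation and repeated condensation. Many genes of both routes are switched on by SREBP transcription factors, which SCAP escorts from the endoplasmic reticulum to the Golgi when sterols are low and which INSIG proteins hold back when sterols are high. USF1 and USF2 are basic helix-loop-helix leucine zipper factors that bind E-box sequences with the core CACGTG, and the fatty acid synthase gene Fasn is a known target of USF factors in liver and adipose tissue. Myoblasts make both products mainly for membranes.

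Because E-boxes are what USF2 is known to bind, the letters CACGTG were searched in the RefSeq promoter windows of GRCm38.p6, which run from 250 bases before to 50 bases after each annotated start. Windows were found for 24 of the 31 genes, and none was used for Fdft1, Fdps, Npc1, Scd1, Scd2, Sqle and Stard4. The core CACGTG, which reads the same on both strands, was in a window of 6 of the 24 genes (25%), against 8.09% of all 27025 symbols with a window. By window, it was in 7 of the 31 windows of these 24 genes, against 7.15% of all 32851 windows. These shares over all symbols and windows were not limited to genes that were expressed in these cells. The 6 sites follow because they carry the letters USF2 is known for; each is 30 bases, 5′ to 3′ on the strand of the gene, with CACGTG in capitals.
Abca1: gggccatgtctcCACGTGctttctgctgag
Scap: cgccgccgggagCACGTGtggagggcggcg
Sc5d: ctacgcggcgacCACGTGaccgccgcgacc
Insig1: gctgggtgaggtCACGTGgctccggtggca
Hsd17b7: ggacccttgtgtCACGTGgctccgcccctc
Dhcr7: cgctgtgatgaaCACGTGgcaaaaagcagc

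The Abca1 site lies at chr4:53160025-53160054 (minus strand) and its core begins 147 bases before the start. The Scap site lies at chr9:110333304-110333333 (plus strand), where the core begins 28 bases after the first base of the first annotated start and 40 bases before the second. The sites of Sc5d (chr9:42264381-42264410, minus strand), Insig1 (chr5:28071299-28071328, plus strand) and Hsd17b7 (chr1:169969331-169969360, minus strand) have their cores 98, 101 and 143 bases before the start. The Dhcr7 site (chr7:143823223-143823252, plus strand) belongs to 1 of 3 annotated starts, 164 bases before it. A looser E-box, CANNTG, which contains every CACGTG match, was in windows of 18 of the 24 genes (75%), against 75.0% of all symbols. The letters TCACNCCAC, a form of the sterol regulatory element, were searched on both strands and found in the window of Hmgcs1 alone among these genes (1.44% of all symbols), 137 bases before the start at chr13:119690204-119690233 (plus strand), in capitals here.
Hmgcs1: cgtcaccgtcTCACCCCACttcccaggtcc

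For Fasn the 250 bases before the start (chr11:120824548-120824797, minus strand) hold no CACGTG and 1 CANNTG, in capitals, 61 bases before the start. This stretch is shown because USF factors are known to act on Fasn, beside the same stretch of Abca1 (chr4:53159896-53160145, minus strand), whose CACGTG is in capitals, as one of the genes called. A match is a description of letters and not a measured binding site, and its absence from this window says nothing of binding elsewhere.
Fasn: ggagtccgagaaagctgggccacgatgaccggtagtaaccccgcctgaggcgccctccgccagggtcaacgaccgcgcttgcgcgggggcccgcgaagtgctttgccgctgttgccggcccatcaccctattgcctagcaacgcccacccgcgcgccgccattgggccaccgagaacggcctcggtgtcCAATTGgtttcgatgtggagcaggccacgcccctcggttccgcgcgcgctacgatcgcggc
Abca1: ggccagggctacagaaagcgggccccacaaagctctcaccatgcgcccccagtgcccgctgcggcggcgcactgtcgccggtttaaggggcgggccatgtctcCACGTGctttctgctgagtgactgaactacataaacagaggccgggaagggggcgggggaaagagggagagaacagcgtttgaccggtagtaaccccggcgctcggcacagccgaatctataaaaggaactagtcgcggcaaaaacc

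Levels are given as CPM, in which the counts of every library are scaled to the same total. Total counts were 14790997 to 17715250 in 5 libraries and 3414565 in siUsf2 3, where 3 counts, the limit that a count of 0 allows, equal 0.879 CPM. The library siUsf2 3 stood apart: pseudogenes took 0.974% of its counts, against 14.0% to 15.3% in the others, and its Pearson r with each other library, taken over genes that are not independent replicates, on log2(CPM + 1) was 0.884 to 0.888, against 0.991 to 0.996 among the others. The targeted gene Usf2 was at 26.2, 31.2 and 23.0 CPM in siControl 1 to 3, at 17.1 and 15.3 CPM in siUsf2 1 and 2, and at 30.8 CPM in siUsf2 3, whose level goes against its label. The main comparison set siUsf2 1 and 2 against siControl 1 to 3, with siUsf2 3 given apart, a choice made with its Usf2 level known. The fitted log2 fold change of Usf2 was -0.40 with all 6 libraries (edgeR adjusted p = 0.702) and -0.74 in the 5, which is a description and no test of the knockdown, since the level of Usf2 bore on which libraries were compared. Markers of myoblasts, none of the 7 at 0, summed to 2450 to 2879 CPM in siControl, to 2113 and 2215 CPM in siUsf2 1 and 2, below every siControl library, and to 2630 CPM in siUsf2 3. In the 5 libraries 4 of these markers fell (Cdh15, Des, Ncam1 and Myod1), Myf5 rose and 2 did not pass. Markers of differentiated muscle, all 7 of which fell in the 5 libraries, had a summed level of 3908 to 4167 CPM in siControl, of 860 and 969 CPM in siUsf2 1 and 2, and of 1718 CPM in siUsf2 3, so every gene below was measured in libraries whose muscle and myoblast markers also differed, and the part of that difference was not tested. Adipocyte markers summed to 3.73 to 5.50 CPM, with Adipoq, which defines that cell type, at 0.293 CPM or less in every library. Macrophage markers summed to at most 4.19 CPM and hepatocyte markers to at most 0.203 CPM, with Adgre1, Ttr and Cyp2e1 at 0 in all 6 libraries.

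Most of the 31 genes did not pass the test of siUsf2 1 and 2 against siControl: Me1, Stard4 and Abca1 rose by about 1.26 to 1.34 times and Scap fell to 0.782 of its siControl level. All 31 passed the filter on low counts. Of these, 3 rose and 1 fell at an edgeR adjusted p below 0.05, and 27 did not pass. At an unadjusted p below 0.05 were 13 of the 31, beside 4290 of all 17217 genes tested. Among all 17217 genes tested, 4.97% rose and 6.4% fell, so 3 and 1 of 31 are no more than a few genes away from the shares over all genes. Their median log2 fold change was -0.08, against -0.01 over all genes tested. In CPM, siUsf2 1 and 2 both lay above every siControl library for 9 of the 31 genes (29.0%, against 21.8% of all genes tested) and below every one for another 9 (29.0%, against 19.5%). With all 6 libraries edgeR called 0 of the 31, as did DESeq2 and limma-voom, and of all 16662 genes tested 0% were called higher and 0.042% lower. At an unadjusted edgeR p below 0.05 were 4 of the 31 there, beside 1753 of all genes tested.

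**Figure D1:**
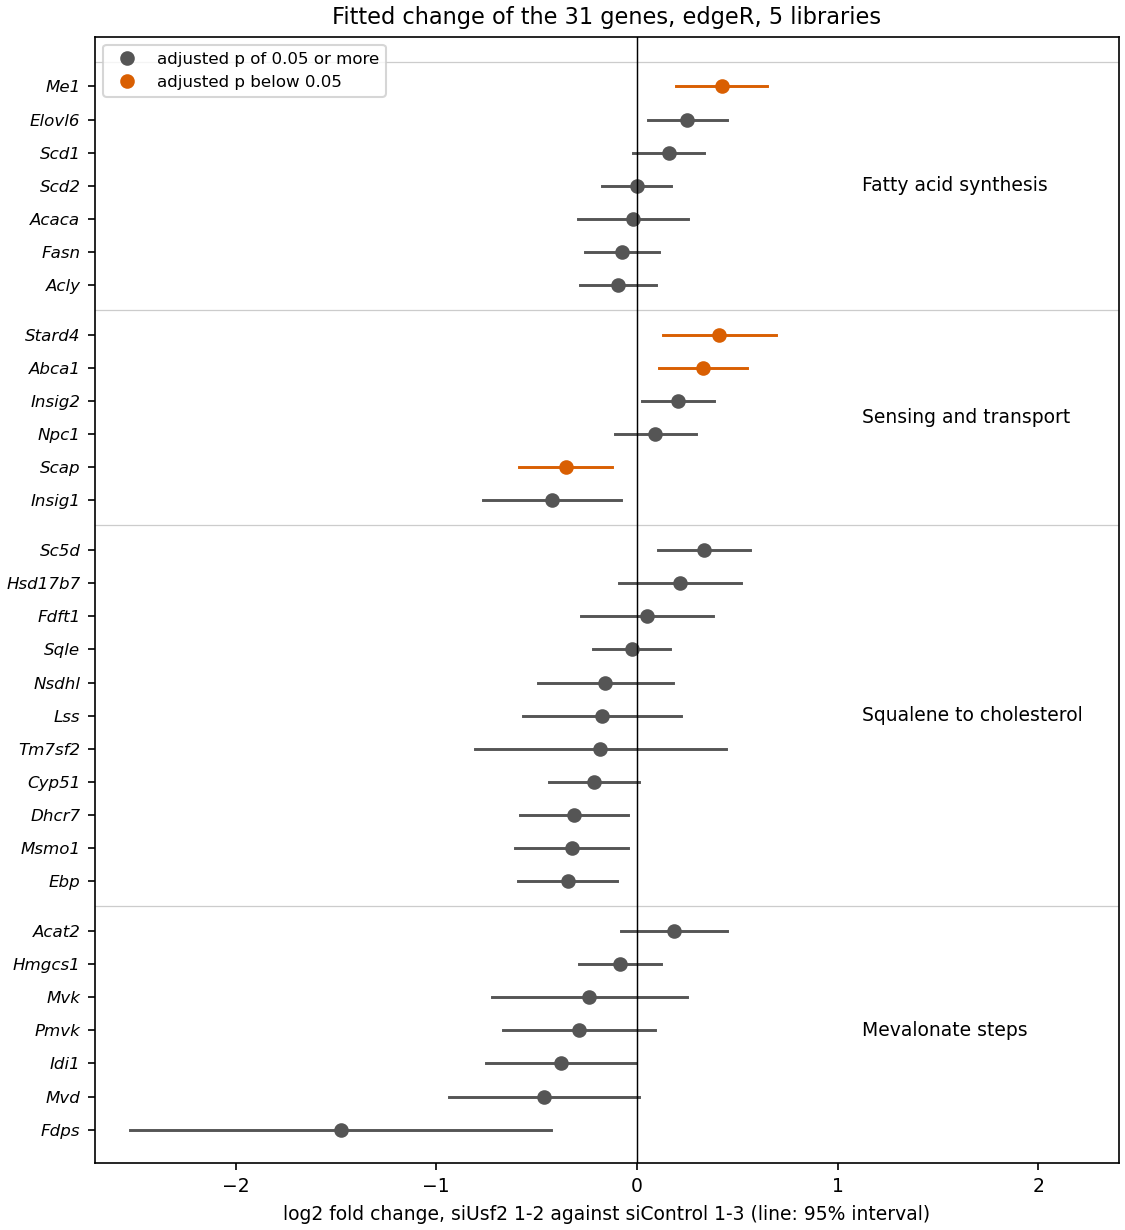
Fitted log2 fold change of each of the 31 genes (points) with its 95% interval (lines), siUsf2 1 and 2 against siControl 1 to 3, grouped by role; orange marks an edgeR adjusted p below 0.05. Me1, Stard4 and Abca1 lie to the right and Scap to the left among the called genes, and Fdps has the widest interval, from -2.52 to -0.43.

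Of the 4 calls, 3 were genes of sterol sensing and transport, a group of 6 in which 2 rose, 1 fell and 3 did not pass. Scap, the sterol-sensing escort of the SREBP factors (chromosome 9, 110333288 to 110384950, plus strand, GRCm38), was at 43.9, 43.9 and 37.1 CPM in siControl 1 to 3, at 33.7 and 31.9 CPM in siUsf2 1 and 2, and at 50.1 CPM in siUsf2 3 (95% Poisson interval 42.9 to 58.2, counting error only). The groups did not overlap in the 5 libraries, while siUsf2 3 lay above all of them. Scap shares 13.2% of its exon bases with 5830462I19Rik, a model on the opposite strand with 7 counts or fewer in every library. Scap fell to 0.782 of its siControl level, a log2 fold change of -0.36 (standard error 0.11, edgeR adjusted p = 0.0369). The call was lost without siControl 1 (adjusted p = 0.156), siControl 2 (0.134), siUsf2 1 (0.171) or siUsf2 2 (0.221), with DESeq2 (0.0620), limma-voom (0.0534) and upper-quartile normalization (0.0632), and with all 6 libraries (-0.15, adjusted p = 0.843).

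Abca1 exports cholesterol from cells to lipoproteins (chromosome 4, 53030787 to 53159895, minus strand). It was at 67.5, 52.9 and 68.5 CPM in siControl 1 to 3, at 84.3 and 75.3 CPM in siUsf2 1 and 2, and at 72.0 CPM in siUsf2 3. All 3 siUsf2 libraries were above every siControl library, with siControl 2 the lowest of the 6. The 95% Poisson interval of siUsf2 3 (63.3 to 81.6 CPM, counting error only) covered siControl 1 and 3. Abca1 rose by 0.33 on the log2 scale (standard error 0.11, edgeR adjusted p = 0.0452), and the call was lost without siControl 1 (adjusted p = 0.0817), siControl 2 (0.21, adjusted p = 0.219), siUsf2 1 (0.329) or siUsf2 2 (0.0604). It was also lost with DESeq2 (0.0716), limma-voom (0.0538), without robust estimation (0.0534) and with all 6 libraries (0.597).

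Stard4, a carrier that moves cholesterol between membranes, was at 17.8, 17.9 and 15.8 CPM in siControl 1 to 3, at 24.6 and 21.4 CPM in siUsf2 1 and 2, and at 24.0 CPM in siUsf2 3. Here too every siUsf2 library was above every siControl library. Stard4 rose by 0.41 on the log2 scale (standard error 0.14, edgeR adjusted p = 0.0498), at the edge of the threshold. The value with all 6 libraries was the same, 0.41, but did not pass (adjusted p = 0.299), and the call was lost without siControl 1 (adjusted p = 0.110), siControl 2 (0.0885), siUsf2 1 (0.415) or siUsf2 2 (0.0926), with DESeq2 (0.0686), limma-voom (0.0529), without robust estimation (0.0507) and with no filter (0.0643).

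The INSIG pair differed in the sign of their values, and neither passed. Insig1, which is itself a target of SREBP factors, was at 15.0, 21.2 and 15.6 CPM in siControl, at 11.9 and 14.1 CPM in siUsf2 1 and 2, and at 16.4 CPM in siUsf2 3 (log2 fold change -0.42, standard error 0.17, edgeR adjusted p = 0.102). Insig2, the other INSIG, was at 99.5, 102 and 100 CPM in siControl 1 to 3, at 119 and 115 CPM in siUsf2 1 and 2, and at 98.1 CPM in siUsf2 3 (0.20, standard error 0.09, edgeR adjusted p = 0.132). Per kilobase of exon, Insig2 stood at 29.0 CPM and Insig1 at 5.59 CPM in siControl, so Insig2 was the more abundant transcript of the pair. Npc1, which moves cholesterol out of lysosomes, overlapped between groups (56.8 to 66.8 CPM in siControl, 67.7 and 66.3 CPM in siUsf2 1 and 2).

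**Figure D2:**
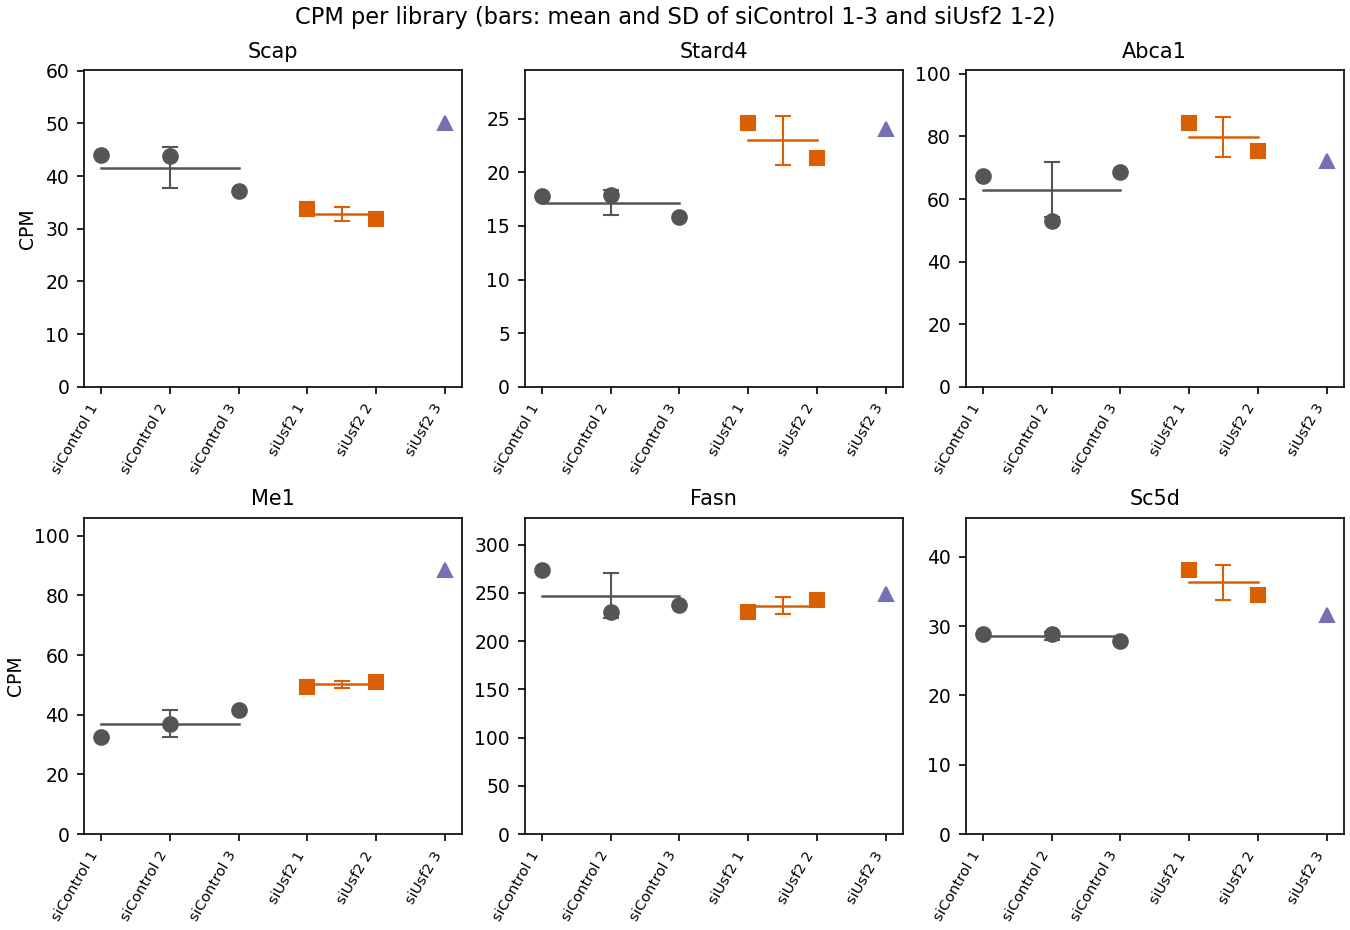
CPM in each library for the 4 called genes, for Fasn and for Sc5d, with the mean and SD of siControl 1 to 3 and of siUsf2 1 and 2 as horizontal and vertical bars; the triangle is siUsf2 3. Stard4 and Abca1 are higher in all 3 siUsf2 libraries, Scap is at 50.1 CPM in siUsf2 3, and Fasn overlaps between groups. For Scap, Abca1 and Sc5d the counting error of siUsf2 3, not drawn, reaches into the siControl range.

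Of the 7 fatty acid synthesis genes, Me1 rose and 6 did not pass. Fasn, fatty acid synthase (chromosome 11, 120805846 to 120824547, minus strand, 43 exons), was at 273, 230 and 237 CPM in siControl 1 to 3, at 230 and 243 CPM in siUsf2 1 and 2, and at 249 CPM in siUsf2 3. The groups overlapped, and siControl 1 was the highest library. Its log2 fold change was -0.08 (standard error 0.09, edgeR adjusted p = 0.655), with a 95% interval of -0.26 to 0.11, that is 0.835 to 1.08 of the siControl level, so a fall of Fasn larger than this bound was outside the interval in these libraries.

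Me1, malic enzyme, which supplies NADPH for fatty acid synthesis (chromosome 9, 86581371 to 86695953, minus strand), had the smallest p of the 31 genes. It was at 32.5, 37.0 and 41.7 CPM in siControl 1 to 3, at 49.4 and 51.0 CPM in siUsf2 1 and 2, and at 88.4 CPM in siUsf2 3. No siUsf2 library overlapped siControl. Me1 rose by 0.42 on the log2 scale (standard error 0.11, edgeR adjusted p = 0.0119), a call lost without siControl 1 (adjusted p = 0.104), siControl 2 (0.0510) or siUsf2 2 (0.105) and with all 6 libraries, where the value was 0.72 (adjusted p = 0.383).

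The desaturases Scd1 and Scd2, which place a double bond in saturated fatty acids, had the highest levels of the set, at 95.1 and 192 CPM per kilobase of exon in siControl. Scd2 was at 1040, 1057 and 1050 CPM in siControl and at 1051 and 1063 CPM in siUsf2 1 and 2, with a log2 fold change of -0.00 (95% interval -0.17 to 0.17). Scd1 was at 436 to 497 CPM in siControl and at 530 and 518 CPM in siUsf2 1 and 2 (0.16, standard error 0.09, edgeR adjusted p = 0.259). Both were lower in siUsf2 3 than in every siControl library, at 426 CPM for Scd1 and 941 CPM for Scd2. Elovl6, which elongates the product of Fasn, was at 57.9 to 59.0 CPM in siControl, at 66.0 and 74.8 CPM in siUsf2 1 and 2 and at 47.2 CPM in siUsf2 3 (0.25, standard error 0.10, edgeR adjusted p = 0.0898, and 0.0482 with upper-quartile normalization). Acly, which makes cytosolic acetyl-CoA from citrate, and Acaca, the acetyl-CoA carboxylase that makes malonyl-CoA, had log2 fold changes of -0.09 and -0.02, with groups that overlapped.

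Among the 7 enzymes of the mevalonate steps, 0 were called by edgeR and 2 had an unadjusted p below 0.05, beside 4290 of all 17217 genes tested. Of the 7 values 6 were negative, with a median log2 fold change of -0.29 against -0.01 over all genes tested. DESeq2 and limma-voom called none of the 7 either. Hmgcs1, the synthase that makes HMG-CoA, was at 51.7, 57.5 and 56.7 CPM in siControl, at 52.8 and 52.5 CPM in siUsf2 1 and 2, and at 49.8 CPM in siUsf2 3 (-0.08, 95% interval -0.29 to 0.12). The kinases Mvk and Pmvk and the decarboxylase Mvd, which act in turn on mevalonate, had values of -0.24, -0.29 and -0.46 at low levels of 4.85 to 10.4 CPM in siControl. All 3 were higher in siUsf2 3 (14.4, 14.4 and 11.4 CPM) than in any other library. Acat2, a cytosolic acetoacetyl-CoA thiolase, was the positive value, at 20.1 to 21.3 CPM in siControl and 23.5 and 24.3 CPM in siUsf2 1 and 2 (0.18, standard error 0.13, edgeR adjusted p = 0.396).

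Fdps, farnesyl diphosphate synthase, joins isoprenoid units at the branch point toward sterols, dolichol and prenylated proteins. Under its own identifier it was barely counted, at 1.42, 1.75 and 2.71 CPM in siControl 1 to 3, at 1.01 and 0.402 CPM in siUsf2 1 and 2, and at 2.05 CPM in siUsf2 3, and its value of -1.48 (standard error 0.51) did not pass (edgeR adjusted p = 0.0589), though it did with no filter (0.0398), with a filter of 1 CPM in 3 libraries (0.0458) and without siUsf2 1 (0.0367). Most of the reads that resembled Fdps were counted on pseudogene copies: the gene itself held 1.06% to 5.18% of the joint count of Fdps and its 5 copies in the 5 libraries. The main copy, Gm3571, whose transcript is 98.9% identical to that of Fdps, held 615, 694 and 721 counts in siControl 1 to 3 and 464 and 441 in siUsf2 1 and 2.

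With the counts of the 5 copies added, Fdps was at 52.9, 55.5 and 52.3 CPM in siControl 1 to 3 and at 36.0 and 38.0 CPM in siUsf2 1 and 2, with no overlap. The joint level fell from 53.6 ± 1.68 (SD, n = 3) to 37.0 ± 1.41 CPM (SD, n = 2), a log2 fold change of -0.55 (standard error 0.10, edgeR adjusted p = 2.91e-04). This was the smallest adjusted p of the 31 genes in that fit, and the call was kept without each of the 5 libraries in turn (-0.61 to -0.51, adjusted p = 1.93e-05 to 0.0261). With DESeq2 and limma-voom the adjusted p was 6.29e-05 and 7.22e-04. The library siUsf2 3 held 4.69 CPM in all (16 counts over gene and copies), far below every other library, and with all 6 libraries the value was -0.97 (adjusted p = 0.611). Counts cannot tell whether the reads came from the gene or from transcribed copies, and Fdps also shares 26.7% of its exon bases with Gm43738, an overlapping model with at most 1 count in any library.

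**Figure D3:**
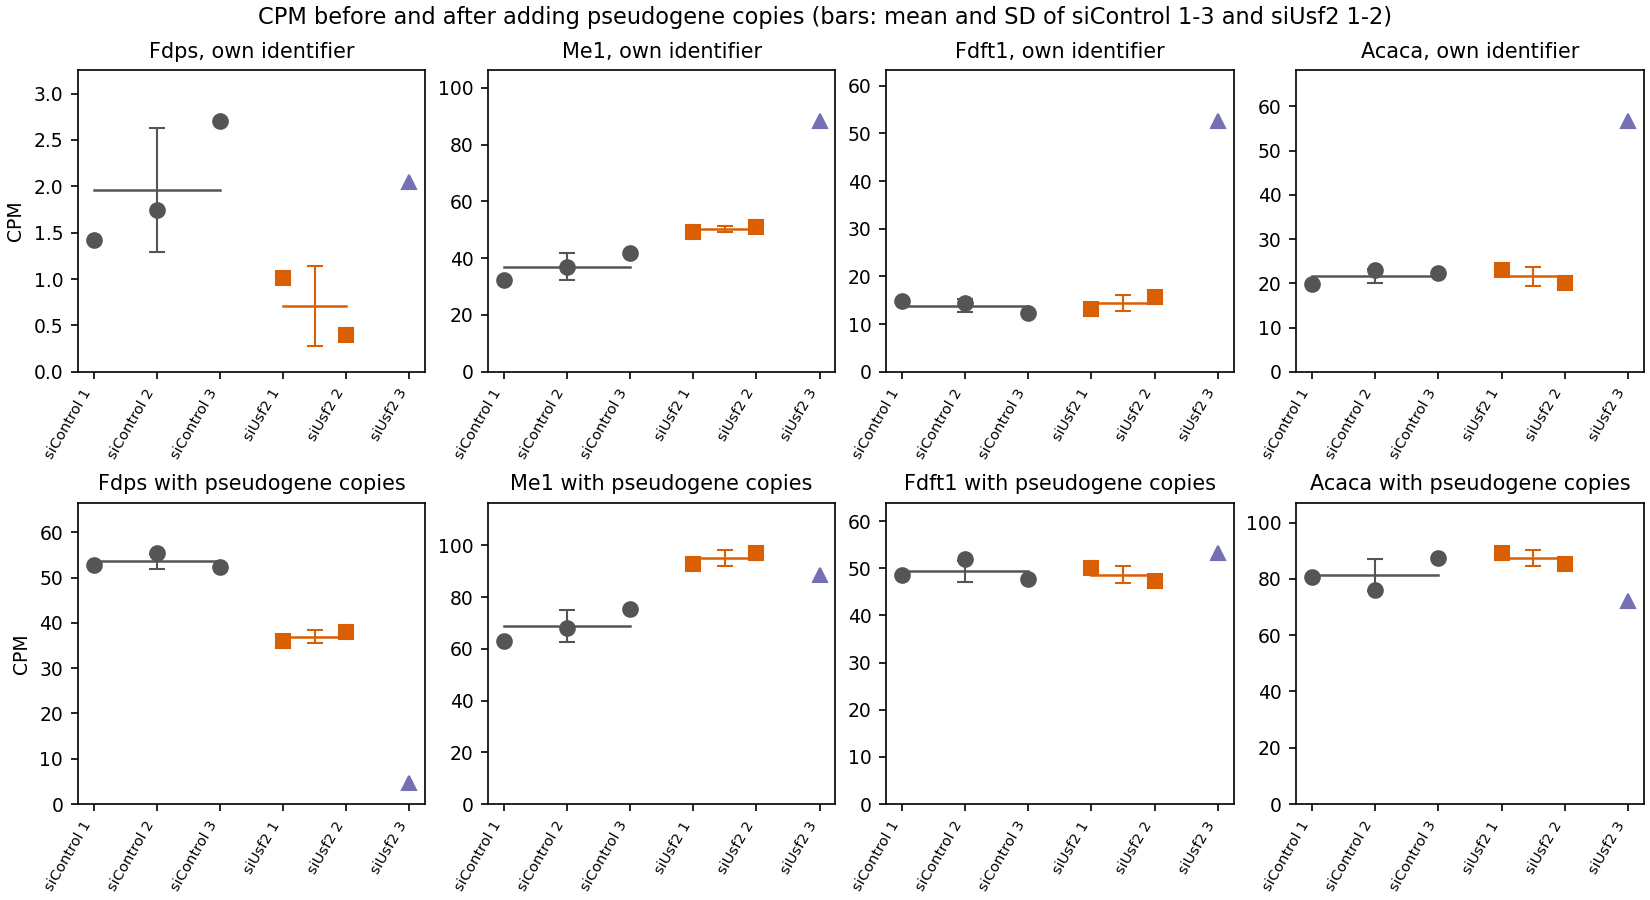
CPM per library of Fdps, Me1, Fdft1 and Acaca under their own identifiers (top) and with the counts of their pseudogene copies added (bottom), with the mean and SD of siControl 1 to 3 and of siUsf2 1 and 2; the triangle is siUsf2 3. Adding the copies brings siUsf2 3 near the other libraries for Me1, Fdft1 and Acaca but leaves it at 4.69 CPM for Fdps.

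Copies also bore on other genes of the set, in which 7 genes, Fdps among them, have at least 1 pseudogene copy that matches their transcripts. Fdft1, squalene synthase, was at 12.3 to 15.6 CPM in the 5 libraries and at 52.7 CPM in siUsf2 3, but with its copy Gm6781 added it was at 47.3 to 51.9 CPM in those 5 and 53.3 CPM. Fdft1 also shares 18.3% of its exon bases with Ctsb on the opposite strand, and reads there cannot be told apart without a strand setting. Acaca went likewise from 19.9 to 23.1 CPM against 56.8 CPM in siUsf2 3 to 76.1 to 89.3 CPM against 72.0 CPM. Me1 with its 2 copies was at 62.9, 68.2 and 75.2 CPM in siControl 1 to 3, at 92.9 and 97.2 CPM in siUsf2 1 and 2, and at 88.4 CPM in siUsf2 3, so that siUsf2 3 came to lie beside its group. In that fit Me1 rose by 0.45 on the log2 scale (standard error 0.09, edgeR adjusted p = 0.00135), a call lost without siUsf2 2 (adjusted p = 0.0555) and with all 6 libraries (0.41, adjusted p = 0.129).

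With copies added to parents over the whole table, 4 of the 31 genes rose (Me1, Stard4, Abca1 and Sc5d) and 3 fell (Fdps, Scap and Ebp), against 5.8% and 7.67% of all 15264 genes tested. Idi1, the isomerase before Fdps, had a value of -0.38 on its own (8.35 and 11.1 CPM in siUsf2 1 and 2, 11.5 to 14.2 CPM in siControl, edgeR adjusted p = 0.191) and -0.32 with its 4 copies (adjusted p = 0.167). It was at 4.98 CPM in siUsf2 3, and still at 5.27 CPM there with the copies, against 13.5 to 21.3 CPM in the others. Idi1 in siUsf2 3 was thus below every other library with and without copies.

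Of the 11 enzymes from squalene to cholesterol, edgeR called 0, with 4 at an unadjusted p below 0.05, beside 4290 of all 17217 genes tested. DESeq2 and limma-voom called none of the 11. Of their values 8 were negative and 3 positive, with a median of -0.18. Ebp, the isomerase that shifts the sterol double bond, was at 38.7, 39.7 and 31.2 CPM in siControl 1 to 3, at 29.97 and 27.9 CPM in siUsf2 1 and 2, and at 22.8 CPM in siUsf2 3. All 3 siUsf2 libraries lay below every siControl library (-0.35, standard error 0.12, edgeR adjusted p = 0.0600). Without siControl 3 the value was -0.44 and passed (adjusted p = 0.00311). Msmo1, a methyl sterol oxidase, had the same order, at 21.0 to 27.8 CPM in siControl, 18.8 and 20.6 CPM in siUsf2 1 and 2, and 17.0 CPM in siUsf2 3 (-0.33, standard error 0.14, edgeR adjusted p = 0.130).

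Sc5d, the desaturase that acts just before the last step, went the other way. It was at 28.8, 28.9 and 27.9 CPM in siControl 1 to 3, at 38.1 and 34.6 CPM in siUsf2 1 and 2, and at 31.6 CPM in siUsf2 3, with no overlap between groups. Its value of 0.33 (standard error 0.11) missed the threshold at an edgeR adjusted p of 0.0505 and passed with RLE factors (0.0451), upper-quartile (0.0280) or library-size (0.0436) normalization and without siControl 3 (0.0286). Dhcr7, which makes cholesterol in the last step, had a value of -0.31 (standard error 0.13, edgeR adjusted p = 0.127), at 24.0 to 27.4 CPM in siControl, 23.4 and 19.0 CPM in siUsf2 1 and 2, and 29.9 CPM in siUsf2 3. It too passed without siControl 3 (adjusted p = 0.0414), as did Insig1 (0.0356), Scd1 (0.0319) and Elovl6 (0.0344), so that 6 of the 31 rose and 4 fell without that library, where 9.43% of all 16924 genes tested rose and 11.6% fell.

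Sqle, the epoxidase that commits squalene to sterols, was at 68.2 to 73.4 CPM in siControl and at 71.3 and 68.7 CPM in siUsf2 1 and 2, a log2 fold change of -0.03 (95% interval -0.22 to 0.16). Cyp51, the lanosterol demethylase, was at 37.7 to 42.8 CPM in siControl and at 35.3 and 35.2 CPM in siUsf2 1 and 2, below every siControl library (-0.22, standard error 0.11, edgeR adjusted p = 0.219). The other members of this stretch, Lss, Nsdhl, Tm7sf2, Fdft1 and Hsd17b7, had values from -0.18 to 0.21 with adjusted p of 0.389 or more. Their 95% intervals reached from -0.81 to 0.52, and Tm7sf2, at 2.81 to 4.29 CPM in siControl, had the widest. Tm7sf2 also shares 12.1% of its exon bases with Vps51, a gene on the same strand at 22.1 to 29.6 CPM over the libraries. The part of this overlap in the Tm7sf2 counts was not tested.

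Set beside the promoter letters shown above, the 6 genes with CACGTG had values of both signs: Abca1 rose and Scap fell, while Sc5d (0.33), Hsd17b7 (0.21), Dhcr7 (-0.31) and Insig1 (-0.42) did not pass. Fasn, whose window lacks the core, and Hmgcs1, whose window holds the sterol regulatory letters, both had a value of -0.08. No count of sites against change was tested.

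The library siUsf2 3 did not simply repeat siUsf2 1 and 2 for these genes, and whether other genes differed in this was not tested. Under the genes' own identifiers it lay above every siControl library for 15 of the 31 genes (48.4%), below for 8 (25.8%) and within their range for 8, against 48.9% above and 30.2% below among the 12690 protein-coding genes tested, shares near those of protein-coding genes at large. Fdft1, Acaca, Me1 and Mvk had the highest log2 ratios to the siControl mean on that count, 1.93, 1.39, 1.26 and 1.08, and Idi1 the lowest, -1.33. With pseudogene copies added the ratio was 0.11 for Fdft1, -0.18 for Acaca, which then lay below every siControl library, and 0.36 for Me1. The ratio of Fdps, 0.07 on its own identifier, was -3.51 with copies, and that of Idi1 was -1.89. The share of counts on pseudogenes, given above, differed between this library and the others, and its part in these ratios was not tested.

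Under the genes' own identifiers, siUsf2 1 and 2 lay outside the siControl range for 18 genes. Of these 18, siUsf2 3 was on the same side for 8 and on the opposite side for 6. Same and opposite sides were not counted over all genes, so this split cannot be read as particular to these genes. Among the 12690 protein-coding genes tested, siUsf2 3 lay above every siControl library for 48.9% and below for 30.2%. Stard4, Abca1, Me1, Sc5d and Acat2 were above in all 3 siUsf2 libraries, and Ebp, Msmo1 and Idi1 below. On opposite sides were Scap, Pmvk and Dhcr7, lower in siUsf2 1 and 2 and higher in siUsf2 3, and Insig2, Scd1 and Elovl6, higher in siUsf2 1 and 2 and lower in siUsf2 3. The 95% Poisson interval of siUsf2 3 reached into the siControl range for Abca1, Sc5d, Acat2 and Msmo1 on the same side. It also did so for Scap, Dhcr7, Insig2 and Scd1 on the opposite side. The other 4, Fdps (7 counts in siUsf2 3), Cyp51, Hsd17b7 and Insig1, were within the siControl range in siUsf2 3. With pseudogene copies added, siUsf2 3 was instead below every siControl library for Fdps and Insig1. Fdps was then at 4.69 CPM in siUsf2 3, against 52.3 to 55.5 CPM in siControl. For Insig1 the joint level was 16.4 CPM, against 16.8 to 24.7 CPM in siControl.

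**Figure D4:**
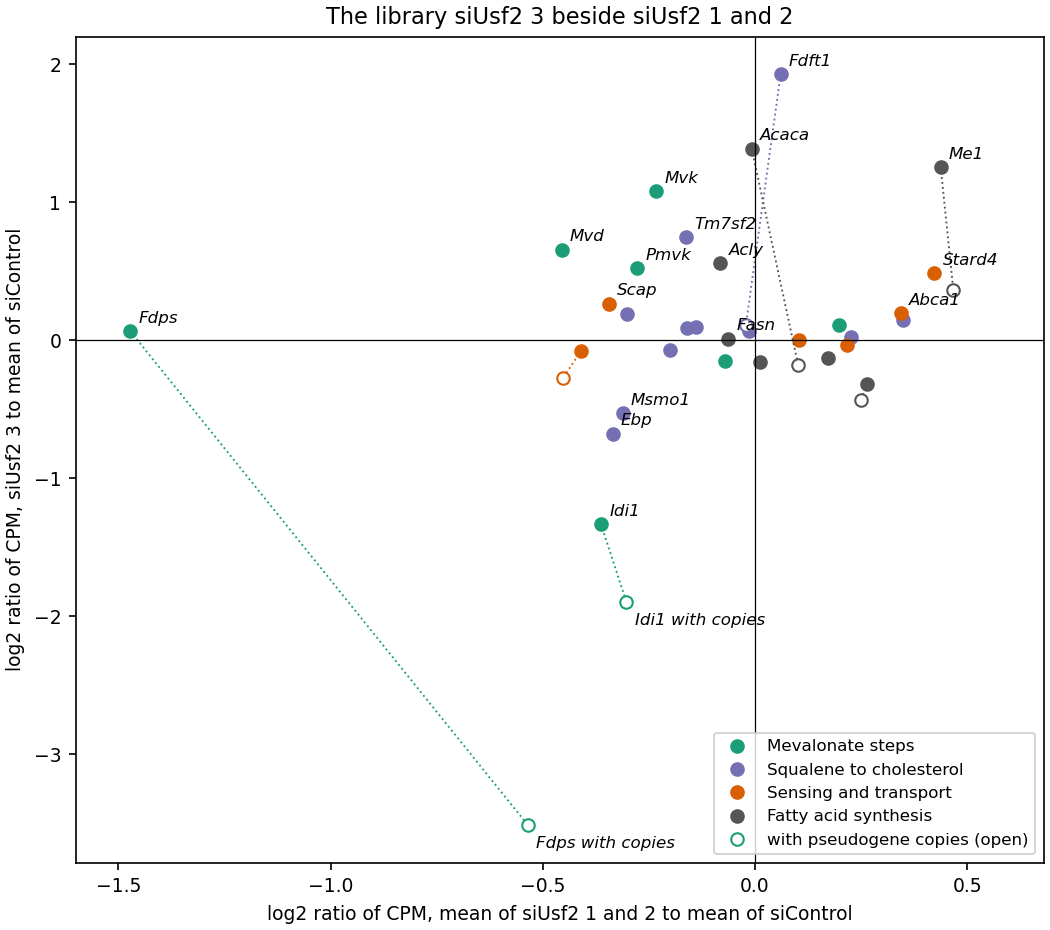
Log2 ratio of CPM to the siControl mean for each of the 31 genes, mean of siUsf2 1 and 2 (horizontal) against the single library siUsf2 3 (vertical), coloured by role; both axes share the siControl libraries, and open points joined by dotted lines show the 7 genes with pseudogene copies added. Fdft1, Acaca and Me1 lie highest on their own identifiers but at 0.11, -0.18 and 0.36 with copies, and Fdps moves from 0.07 to -3.51.

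Other genes of the pathways came from lists fixed with the tests. Of 21 measured genes of sterol regulation, transport and storage, 2 rose, 0 fell and 19 did not pass (median log2 fold change -0.03). Among all 17217 genes tested, 4.97% rose and 6.4% fell. At an unadjusted p below 0.05 were 6 of the 21, beside 4290 of all genes tested. None of the lists was tested as a set. Scarb1, the HDL receptor that takes up and releases cholesterol, was at 30.7, 25.6 and 22.2 CPM in siControl 1 to 3, at 42.9 and 40.8 CPM in siUsf2 1 and 2, and at 40.7 CPM in siUsf2 3. All 3 siUsf2 libraries were above siControl by a wide gap. Scarb1 rose by 0.67 on the log2 scale (standard error 0.12, edgeR adjusted p = 3.48e-04), and the call was lost with all 6 libraries (0.63, adjusted p = 0.200) and under no other setting tried. Rnf145, a sterol-responsive ubiquitin ligase, rose by 0.27 (standard error 0.09, edgeR adjusted p = 0.0380), at 140 to 150 CPM in siControl, 184 and 167 CPM in siUsf2 1 and 2 and 179 CPM in siUsf2 3. Its call was lost without siControl 1 (adjusted p = 0.0795), siControl 2 (0.0999), siUsf2 1 (0.405) or siUsf2 2 (0.113) and with all 6 libraries (0.295).

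Of 27 measured genes of fatty acid elongation, desaturation, activation and lipid assembly, 4 fell, 0 rose and 23 did not pass (median -0.02). The shares over all 17217 genes tested were 6.4% lower and 4.97% higher. At an unadjusted p below 0.05 were 4 of the 27, beside 4290 of all genes tested. Agpat3, which adds an acyl chain to lysophosphatidic acid, fell by 0.30 on the log2 scale (standard error 0.09, edgeR adjusted p = 0.0248), from 141 ± 8.89 (SD, n = 3) to 116 ± 2.75 CPM (SD, n = 2), and was at 134 CPM in siUsf2 3. Mid1ip1, which activates acetyl-CoA carboxylase, and Mcat, of mitochondrial fatty acid synthesis, fell by 0.40 (standard error 0.12, edgeR adjusted p = 0.0283) and 0.36 (standard error 0.12, edgeR adjusted p = 0.0428). Tecr, the last enzyme of the elongation cycle, fell by 0.49 (standard error 0.13, edgeR adjusted p = 0.0119), from 28.4 ± 2.88 to 20.4 ± 0.689 CPM, and with its 2 pseudogene copies added by 0.26 (adjusted p = 0.0326). In siUsf2 3 Tecr held 375 CPM, and its joint level with the copies was 265 to 338 CPM in the other 5 libraries. With all 6 libraries the Tecr value turned to 2.20 (adjusted p = 0.636).

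These 4 calls were lost when single libraries were left out. Leaving out siControl 1 gave an adjusted p of 0.0979 for Agpat3, 0.0811 for Mid1ip1, 0.197 for Mcat and 0.0912 for Tecr. Leaving out siControl 2 gave 0.0816 for Agpat3, 0.170 for Mid1ip1 and 0.128 for Mcat. With siUsf2 1 left out it was 0.194 for Agpat3, 0.122 for Mid1ip1, 0.348 for Mcat and 0.0767 for Tecr, and with siUsf2 2 left out 0.199, 0.182, 0.0966 and 0.0915 in the same order. Agpat3 also missed the threshold with upper-quartile normalization (0.0510), Mid1ip1 with DESeq2 (0.0509), and Mcat with both (0.0691 and 0.0749), with limma-voom (0.0610) and with library-size normalization (0.0556). With all 6 libraries the adjusted p of Agpat3, Mid1ip1 and Mcat was 0.377, 0.321 and 0.782.

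Of 12 genes of the isoprenoid and ubiquinone branch that leaves the pathway after Fdps, edgeR called 0 (1 at an unadjusted p below 0.05). Values ran from -0.26 to 0.15, with a median of -0.12. Among all 17217 genes tested, 4.97% rose, 6.4% fell and 4290 had an unadjusted p below 0.05. The differentiation genes moved much further in the same libraries. Myog, a factor of terminal differentiation, went from 1037 ± 119 (SD, n = 3) to 306 ± 33.8 CPM (SD, n = 2), a log2 fold change of -1.77 (standard error 0.10, edgeR adjusted p = 6.44e-13), and Acta1, skeletal actin, had a log2 fold change of -2.09 (standard error 0.10, edgeR adjusted p = 1.44e-15). With all 6 libraries both calls were lost, at -1.50 for Myog (adjusted p = 0.113) and -1.77 for Acta1 (adjusted p = 0.0890). In bulk RNA, fewer cells of a kind and less RNA per cell cannot be told apart.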

How the data were processed

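Reads were placed on mm10, and FastQC, Trimmomatic, HISAT2, featureCounts and DESeq2 were used in some role, per the submitters' processing notes, with versions, strand setting and annotation not given in the sources used here. The authors deposited whole-number counts per Ensembl identifier without normalization. A second deposited table, the same counts scaled to each library's total, was not used. Symbols, coordinates and exon lengths came from GENCODE M21 (GRCm38), and 52133 of 55414 identifiers matched.

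Tests used edgeR 4.0.16 in R 4.3.3 (filterByExpr, TMM, robust quasi-likelihood, two-sided, Benjamini-Hochberg over all genes tested, called below 0.05). The standard error is the absolute log2 fold change divided by the square root of F. Alternatives used DESeq2 1.42.0, limma-voom (limma 3.58.1), RLE, upper-quartile or library-size scaling, other filters, a replicate block and each library left out. Where a group is left with 1 library, it is assumed to vary like the other group. Pseudogene transcripts were aligned to protein-coding transcripts with minimap2 2.31; a match needed 90% identity, 150 matching bases and 50% of the pseudogene covered, and counts of each matched copy were added to its parent in 1 alternative; other tools, the block and left-out libraries on those summed counts of Fdps and Me1 were chosen after seeing the data.

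All 31 genes are accounted for; values in every library are given for called genes, for Fasn and for the largest changes in each role, other genes by range or count with some given in full for their role in the pathway, and up to 4 called genes are named per other list. The genes and lists were chosen with earlier results of these data known. Replicate pairs differed by more than counting noise (chi-square per degree of freedom 4.18 or more within groups), so none was merged. On simulated counts with the settings of the 5 libraries (16859 genes, 1 shared dispersion), 22% of genes changed 1.3-fold, 47.9% changed 1.5-fold and 91.8% changed 2-fold were recovered, with 11 false calls among 138; with 6 libraries (16337 genes), 0% of genes changed 2-fold and 43.8% changed 4-fold were.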

Additional observations from a re-analysis of the deposited data

How the results depend on the processing

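The counts of genes called moved with many settings. In the 5-library comparison (3 higher, 1 lower) the higher genes were 5 with upper-quartile normalization, 1 with DESeq2, with limma-voom and without robust estimation, 6 with a replicate block, and 0 with all 6 libraries or an adjusted p below 0.01. The lower genes were 0 with upper-quartile normalization, DESeq2, limma-voom, all 6 libraries or an adjusted p below 0.01, 3 with no filter or with pseudogene counts added, 2 with at least 1 CPM in 3 libraries, and 4 with a replicate block. Leaving out 1 library gave 0 to 6 higher and 0 to 4 lower. In the 6-library comparison the counts were 0 in each direction under all settings except without siUsf2 3, so the range over left-out libraries was 0 to 3 higher and 0 to 1 lower. Deviations from group means in same-numbered siControl and siUsf2 libraries correlated at -0.10 to -0.01 over 3 pairs with all 6 libraries. In the 5 libraries the values were 0.012 and 0.0026 for numbers 1 and 2. There the deviations of siUsf2 1 and 2 mirror each other, and with 6 libraries siUsf2 3 bears on both. These values therefore cannot decide whether the numbers pair the samples. Over the whole table the block called 1719 genes higher and 2270 lower, against 855 and 1102. In the 5 libraries siControl 3 is the only library numbered 3, so the block takes up that library whole and compares the others. Leaving out siControl 3 without a block gave 1596 higher and 1964 lower. The block is thus not a setting separate from leaving out siControl 3.

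Over the 31 genes and Usf2, 428 of 512 values under other settings kept their direction and side of the threshold, 30 lost a call, 24 gained one and 30 turned sign; the cause was not tested. None of the turned values was called. With all 6 libraries the sign turned for Mvk (0.26), Tm7sf2 (0.10), Acaca (0.56), Acly (0.12) and, outside the 31, Tecr (2.20). With a replicate block it turned for Fdft1 (-0.029), Sqle (0.0064), Tm7sf2 (0.058), Acaca (0.0032) and Scd2 (0.0028). With pseudogene counts added it turned for Fdft1 (-0.040) and Acaca (0.082). Upper-quartile normalization turned Sqle (0.010), Acaca (0.017) and Scd2 (0.036), and Scd2 also turned with RLE factors (0.0052), library size (0.011), DESeq2 (0.0052) and the 1 CPM filter (0.0082). Without single libraries the range was -0.085 to 0.18 for Fdft1, for Sqle -0.052 to 0.014, for Lss -0.45 to 0.049, for Tm7sf2 -0.29 to 0.065, for Fasn -0.13 to 0.0024, for Acaca -0.11 to 0.061 and for Scd2 -0.024 to 0.020. Limited to the 250 bases before the start, 6 genes held CACGTG, 16 (against 18) CANNTG and 1 TCACNCCAC. The widest 95% intervals were those of the least counted genes, Fdps (-2.52 to -0.43; 6 to 48 counts in the 5 libraries) and Tm7sf2 (-0.81 to 0.44; 42 to 76 counts); with copies added the standard error of Fdps was 0.10 against 0.51.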
